A study of Rattus norvegicus with 14 samples.

Results

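Transcripts of the nuclear genes of oxidative phosphorylation were measured in rat hippocampus by RNA sequencing. Members were the genes whose symbol begins with Nduf followed by a, b, c, s or v, with Uqcr, with Cox4 to Cox8 or with Atp5, together with Sdha, Sdhb, Sdhc and Sdhd. Of 92 such symbols, 89 reached an FPKM of 1 or more in at least 4 of the 14 samples, out of 12744 genes that passed the same filter and 22601 genes listed. FPKM is a count of sequenced fragments scaled to transcript length and to the number of fragments mapped in the library. Levels of different genes can thus be set side by side, while a difference between samples is relative to all other transcripts. The 3 symbols left out, Cox7a1, Cox7b2 and Cox8c, reached no more than 0.231, 0.343 and 0.109 FPKM in any sample. RefSeq gives the current symbol Cox7a1 to another identifier (LOC687508 in the files), which ran from 0.224 to 0.636 FPKM.

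Oxidative phosphorylation makes most of the ATP of neurons, whose ion pumps and synapses use it at a high rate. Complex I (NADH dehydrogenase) and complex II (succinate dehydrogenase) pass electrons to ubiquinone, complex III (cytochrome bc1) passes them on to cytochrome c, and complex IV (cytochrome c oxidase) passes them to oxygen. Complex V (ATP synthase) uses the proton gradient that complexes I, III and IV build. Part of the subunits are encoded by mitochondrial DNA, and only those encoded in the nucleus are described here.

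By known function, 36 of the members belonged to complex I (7 core subunits, which carry the cofactors, and 29 accessory subunits), 4 to complex II, 8 to complex III, 17 to complex IV and 16 to complex V. The remaining 8 members carry the family name without being subunits: Ndufaf1 to Ndufaf7 and Atp5sl (current symbol Dmac2) are assembly factors of complex I. A further 7 members counted with complex IV, and Atp5s counted with complex V, are tissue-restricted isoforms or related proteins. The row named Ndufs6, counted with the accessory subunits of complex I, belongs to an identifier that RefSeq now lists as a pseudogene. The subunit name of the set therefore does not hold for all of it. Some subunits lie outside the symbol rule: cytochrome c1 (Cyc1, 152 to 192 FPKM), and Ndufa13 and Cox6b1, which the files list under LOC100911483 (202 to 285 FPKM) and LOC688869 (327 to 439 FPKM).

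The samples came from Wistar rats of 180 to 220 g in 3 groups. The 4 controls received vehicle, 5 animals received pentylenetetrazole (PTZ) with vehicle, and 5 received PTZ with Q808. PTZ is a convulsant that blocks GABA-A receptors and serves as a seizure model, while for Q808 there is a code name only. The labels give neither doses nor sampling times, and no sex of the animals. Each group was mixed in Y-linked transcripts, which 2 libraries of the controls and 3 in each of the other groups held. The labels number the samples within a group but say no more of their origin. The p-values therefore set differences between groups against the spread between these samples.

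Across the 14 libraries the summed FPKM ran from 383126 to 419358, and relative depth, read from the smallest steps between low values, from 0.858 to 1.04. The 7 hippocampal markers were all found, and 6 of them were at 1 FPKM or more in every library. Transcripts from neighbouring tissue differed between libraries. The choroid plexus transcript Ttr was at 54.5, 113 and 329 FPKM in control replicate 3, PTZ replicate 2 and PTZ+Q808 replicate 1. Elsewhere it was at 1315 to 7125 FPKM. Summed striatal markers reached 376 FPKM in control replicate 2, and summed pituitary markers 684 FPKM in PTZ+Q808 replicate 3. In tissue RNA of this kind, fewer cells of a type and less RNA per cell cannot be told apart.

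The members were among the most abundant transcripts of the tissue. The median of their mean levels was 139.4 FPKM, against 9.70 FPKM over all genes tested, and 54 of 89 members (60.7%) lay above 100 FPKM, against 5.74% of all genes. Levels differed by complex. The median member stood at 116 FPKM in complex I, 134 FPKM in complex II, 139.4 FPKM in complex III, 281 FPKM in complex IV and 316 FPKM in complex V, while the assembly factors had a median of 12.5 FPKM and none above 100 FPKM.

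**Figure D1:**
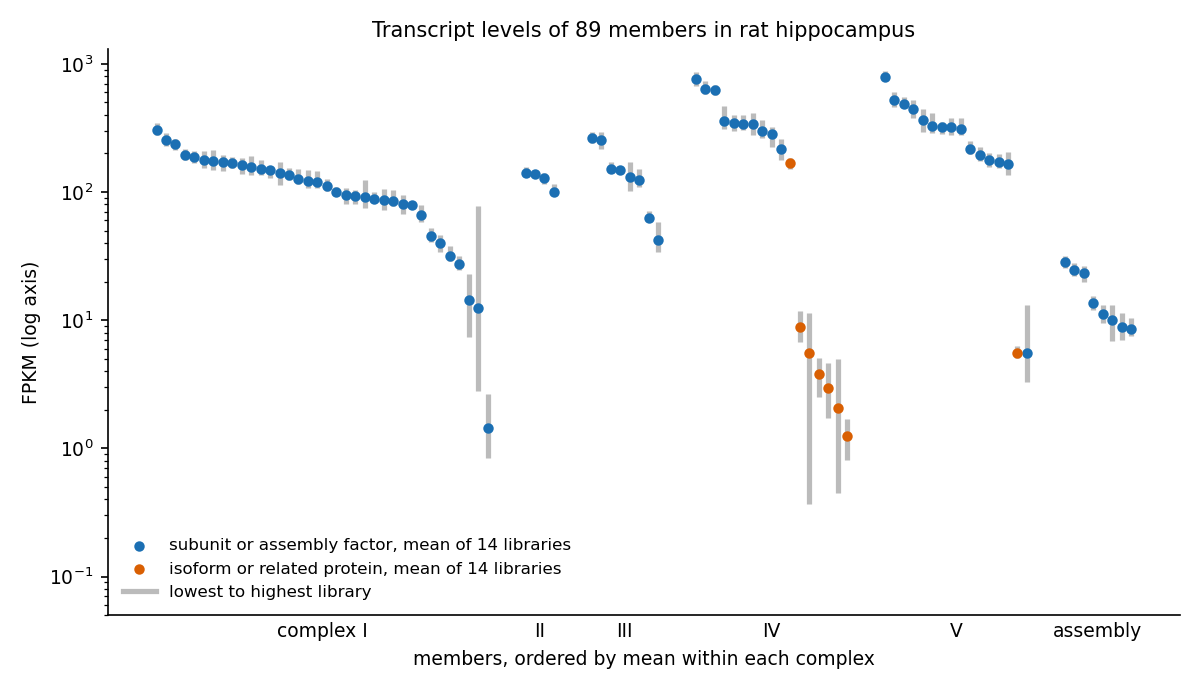
Mean FPKM of each of the 89 members over 14 libraries on a log axis, ordered within each complex, with grey bars from the lowest to the highest library. The bulk of the subunits lie high on the axis with short bars, up to 793 FPKM for Atp5b, whereas tissue-restricted isoforms and assembly factors lie lower, and Ndufa1 and Cox8b have the longest bars.

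Within complex I the most abundant transcripts were those of the membrane-arm accessory subunits Ndufb9 (304 FPKM) and Ndufb8 (255 FPKM). The 7 core subunits ran from 66.0 FPKM for Ndufs8 to 187 FPKM for Ndufv2. In complex II, Sdhb (the iron-sulfur subunit) and Sdha (the flavoprotein, where succinate is oxidised) stood at 141 and 139.4 FPKM, and the membrane anchors Sdhc and Sdhd at 128 and 99.2 FPKM. Complex III was led by Uqcr11 (266 FPKM) and Uqcrh (253 FPKM), the hinge protein at cytochrome c1. Its core proteins Uqcrc1 and Uqcrc2 (150.4 and 148 FPKM) and the Rieske iron-sulfur protein Uqcrfs1 (124 FPKM) stood below them.

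The highest levels of the set belonged to complexes IV and V. In complex IV they were Cox4i1 (763 FPKM) and Cox6a1 (638 FPKM), the isoforms found in most tissues. In complex V, Atp5b, the catalytic beta subunit, stood at 793 FPKM and Atp5l, subunit g of the membrane part, at 525 FPKM. A family of 3 genes encodes the c subunit that forms the rotating ring, with an identical mature protein: Atp5g3 was highest at 319.6 FPKM, then Atp5g2 at 218.5 FPKM and Atp5g1 at 166.5 FPKM. In the control libraries these stood at 335 ± 12.2, 228 ± 10.1 and 172 ± 6.94 FPKM (SD, n = 4), so the order was wider than the spread between samples.

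Where a subunit has isoforms, the one found in most tissues outweighed its restricted partner. Cox4i2, an isoform best known from lung, had a mean of 1.24 FPKM beside 763 FPKM for Cox4i1. Cox6a2, the isoform of heart and skeletal muscle, had 2.07 FPKM beside 638 FPKM for Cox6a1, and Cox8b, also of muscle, 5.56 FPKM beside 630.5 FPKM for Cox8a. Cox6b2, best known from testis, had 3.80 FPKM. Ndufa4l2, a hypoxia-inducible relative of the complex IV subunit Ndufa4, had 2.95 FPKM beside 338 FPKM. The filtered Cox7a1 and Cox7b2 stood beside Cox7a2 (349 FPKM) and Cox7b (281 FPKM).

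Promoters of these genes are known to share binding sites of the transcription factors NRF1, GABPA (of the ETS family) and YY1. RefSeq promoter windows of the rat build GRCr8, from 250 bases before to 50 bases after the start of the gene, were at hand for 76 of the 89 members. The NRF1 letters (GCGCA, any base, then GCGC) were found on either strand in 15 of 76 windows (19.7%), against 4.71% of 27457 rat promoters of the same length. For CCGGAAG (ETS) the count was 20 of 76 (26.3%), against 9.22%, and for AAGATGGC (YY1) 15 of 76 (19.7%), against 3.44%. At least 1 of these motifs stood in 42 of 76 windows (55.3%), against 15.5% of all promoters. The end of the ETS motif can overlap the start of the YY1 motif, which it did in no member. The 27457 promoters were not limited to genes expressed in this tissue, so the shares do not compare the members with other expressed genes. A match describes letters and not binding.

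The windows printed here belong to 3 members whose PTZ+Q808 libraries all lay above the control libraries (values given with that comparison), and show 1 motif each, in capitals. Ndufs4 (chr2:47794865-47795164, minus strand) holds the YY1 letters at base 5 after the start. Ndufaf5 (chr3:147961362-147961661, plus strand) holds the NRF1 letters from 15 bases before the start, and Uqcrc2 (chr1:184598990-184599289, plus strand) holds the ETS letters on the opposite strand, from 117 and from 28 bases before it.
Ndufs4: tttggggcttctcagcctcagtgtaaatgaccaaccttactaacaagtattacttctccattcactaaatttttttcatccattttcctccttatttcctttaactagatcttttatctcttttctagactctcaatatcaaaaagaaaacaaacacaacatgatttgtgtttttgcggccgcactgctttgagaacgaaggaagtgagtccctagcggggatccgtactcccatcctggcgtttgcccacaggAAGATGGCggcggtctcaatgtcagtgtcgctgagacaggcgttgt
Ndufaf5: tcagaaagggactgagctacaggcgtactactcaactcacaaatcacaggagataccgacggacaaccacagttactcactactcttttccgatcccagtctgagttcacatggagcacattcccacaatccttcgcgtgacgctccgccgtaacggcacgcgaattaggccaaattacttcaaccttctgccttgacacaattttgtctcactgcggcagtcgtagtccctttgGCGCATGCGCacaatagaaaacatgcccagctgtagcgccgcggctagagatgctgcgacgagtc
Uqcrc2: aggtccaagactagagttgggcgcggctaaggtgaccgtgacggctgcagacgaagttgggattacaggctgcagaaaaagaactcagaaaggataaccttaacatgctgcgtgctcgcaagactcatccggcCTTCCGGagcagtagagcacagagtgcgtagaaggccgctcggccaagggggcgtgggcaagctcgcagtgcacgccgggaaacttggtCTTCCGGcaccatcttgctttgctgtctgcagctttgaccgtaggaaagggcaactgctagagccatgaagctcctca
The windows of Ndufb3 and Cox7b, which had the same order of groups, hold none of the 3 motifs. That of Ndufa4l2, whose PTZ+Q808 libraries all lay below the controls, holds the YY1 letters from 1 base before the start. Of all member windows 55.3% hold at least 1 motif. The printed windows were picked by these values, and a link between motif and change was not tested.

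Before any comparison of groups, the members were seen to shift together from library to library. Of the 89 members, the number above their own median of the 14 libraries was 45, 61, 65 and 32 in control replicates 1 to 4. In the PTZ libraries it was 29, 8, 31, 74 and 66, and in the PTZ+Q808 libraries 27, 79, 32, 30 and 44. All 3 groups thus held libraries with many high members and libraries with few, and the lowest and the highest library were PTZ replicate 2 and PTZ+Q808 replicate 2.

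All 5 complexes took part in these 2 libraries. In PTZ replicate 2 the mean deviation from each gene's median, on the log2(FPKM + 1) scale, was -0.12 in complex I, -0.043 in complex II, -0.12 in complex III, -0.19 in complex IV and -0.12 in complex V. In PTZ+Q808 replicate 2 it was 0.19, 0.12, 0.21, 0.13 and 0.20 in the same order. Single uneven members, described further on, carry part of some values. Without the 6 members whose SD within groups exceeded 0.25, a choice made after seeing the data, complex IV stood at -0.12 in PTZ replicate 2 and at 0.15 in PTZ+Q808 replicate 2. Complex I in control replicate 2, where Ndufa1 was high, went from 0.14 to 0.035. Over the other 83 members PTZ replicate 2 was at -0.12 and PTZ+Q808 replicate 2 at 0.18. Cytosolic ribosomal proteins, which also have short and abundant transcripts, stood above their median for 6 of 78 genes in the first library and for 70 of 78 in the second, and mitochondrial ribosomal proteins for 23 of 73 and 67 of 73. Over all genes tested the share was 53.4% and 51.0%. PTZ+Q808 replicate 2 also had the lowest relative depth (0.858) and PTZ replicate 2 the highest (1.04), and their part in the shift was not tested.

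**Figure D2:**
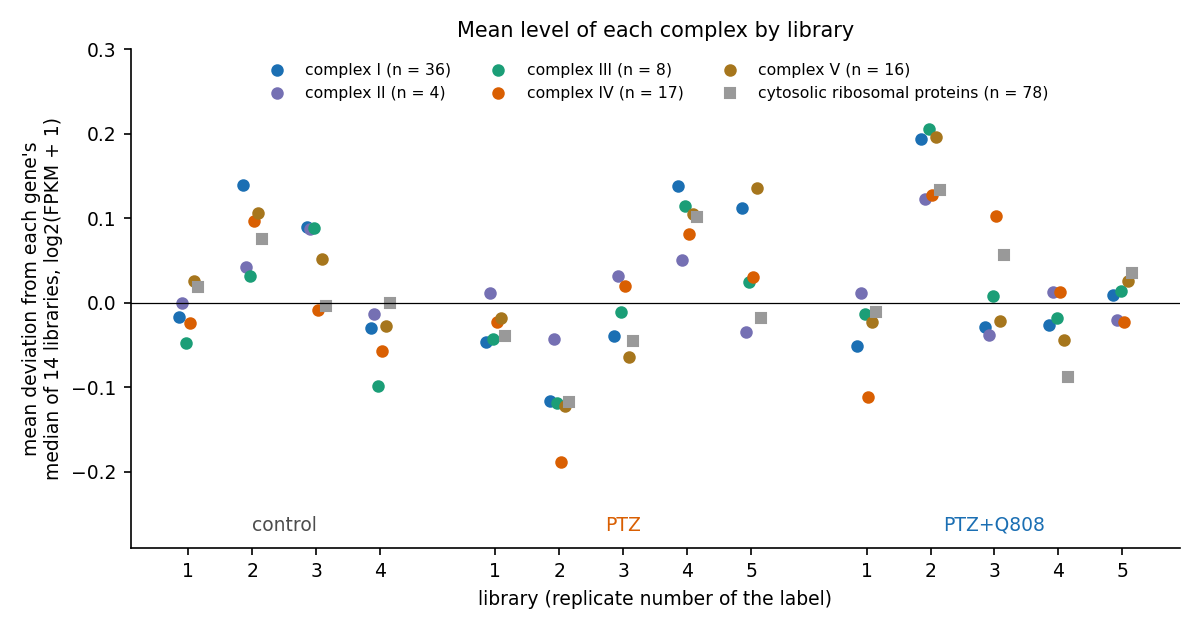
Mean deviation of each complex from its genes' 14-library medians on the log2(FPKM + 1) scale, by library, with 78 cytosolic ribosomal protein genes as grey squares. Each complex is lowest in PTZ replicate 2 and highest in PTZ+Q808 replicate 2, while in other libraries the complexes can part, as in PTZ replicate 5 with complex II at -0.035 and complex V at 0.14.

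The summed level of the members did not separate the groups. It was 15289, 15822, 16124 and 14606 FPKM in the controls, 14854, 13804, 15043, 16350.2 and 15708 FPKM in the PTZ libraries, and 14594, 17385, 15099.7, 14726 and 15231 FPKM in the PTZ+Q808 libraries. The ranges overlapped in every pair of groups. As a share of all FPKM the members took from 3.60% in PTZ replicate 2 to 4.15% in PTZ+Q808 replicate 2.

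The first comparison addressed what PTZ does to these transcripts. The members showed small differences and none passed the test: 0 of 89 had an adjusted p under 0.05 in limma, where 0.0314% of all genes did, and 2 of 89 had an unadjusted p under 0.05, where 8.11% of all genes did. The median log2 change on the log2(FPKM + 1) scale, which understates the change of genes at low levels, was -0.034 over the members and -0.010 over all genes, with 26 members higher and 63 lower in PTZ. By complex the median was -0.040 in complex I, -0.015 in complex II, 0.0051 in complex III, -0.010 in complex IV and -0.036 in complex V. These signs were not stable: with 1 library left out the median ran from -0.038 to 0.010 in complex II, from -0.034 to 0.028 in complex III and from -0.049 to 0.021 in complex IV, and over all alternatives it reached 0.015 in complex I and 0.012 in complex V. For 83 of the 89 members (93.3%) the 95% interval lay within a 1.5-fold change in either direction, against 90.0% of all genes. Without the 3 libraries low in Ttr the members' median turned to 0.019, and without PTZ replicate 2 or control replicate 3 it was -0.0032 or -0.0094.

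Groups that do not overlap were found for 2 members, both lower in PTZ, where 3.03% of all genes had non-overlapping groups. Ndufa4l2 was at 3.20, 4.64, 3.36 and 3.52 FPKM in the controls and at 2.48, 2.76, 2.14, 1.72 and 3.08 FPKM in the PTZ libraries. Every PTZ library was below every control, by little for replicate 5. The log2 change was -0.45 ± 0.12 (SE), and the limma adjusted p was 0.341. Sdhc, a membrane anchor of complex II, was at 134.7, 140.0, 131.6 and 131.5 FPKM in the controls and at 129.7, 115.6, 127.2, 127.7 and 121.5 FPKM after PTZ. The groups stood next to each other without overlap, with a log2 change of -0.11 ± 0.048 (SE) and a limma adjusted p of 0.594.

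The other members of smallest p in each complex overlapped between the groups. In complex III these were Uqcrh (log2 change 0.15, limma adjusted p = 0.644) and Uqcr10, a small subunit of that complex (-0.18, limma adjusted p = 0.671). Complex IV had Cox7a2l2 (-0.17, limma adjusted p = 0.724), and complex V the c subunit genes Atp5g2 and Atp5g3, with log2 changes of -0.12 and -0.099 (limma adjusted p = 0.658 and 0.724). Complex I had Ndufs4 (0.12, limma adjusted p = 0.668) and Ndufb7 (-0.14, limma adjusted p = 0.715), and the assembly factors had Ndufaf3 (-0.12, limma adjusted p = 0.671) and Ndufaf6 (0.20, limma adjusted p = 0.725). The interval of the PTZ difference for Sdha ran from -0.077 to 0.16 on the log2 scale.

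**Figure D3:**
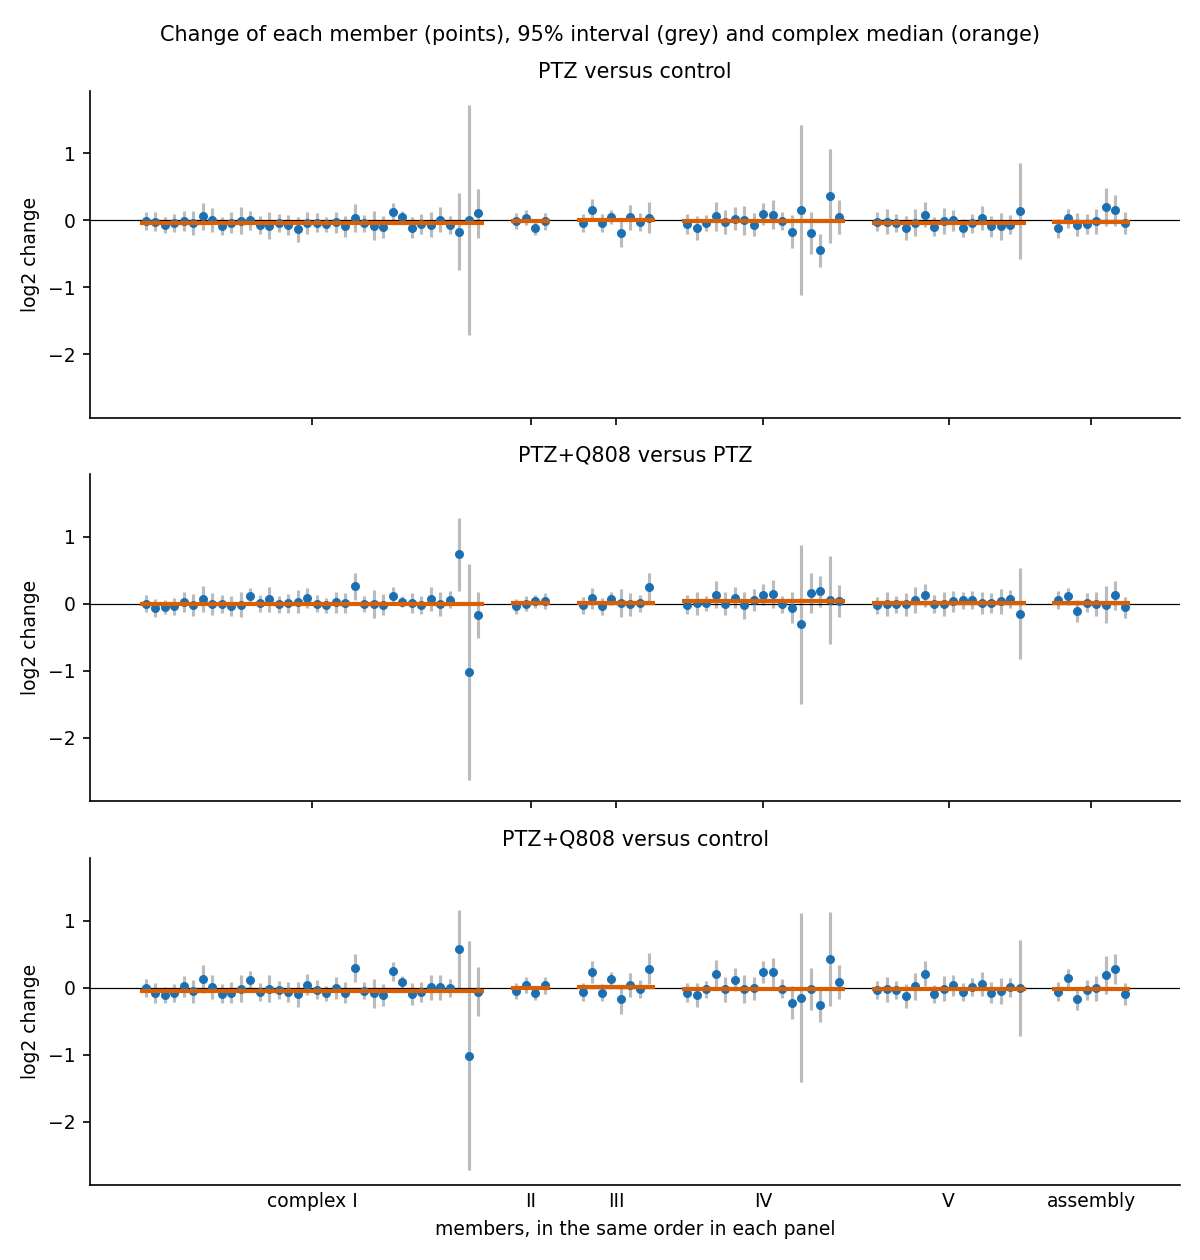
Log2 change of each member with its 95% interval (grey) and the median of each complex (orange), in 3 panels for the 3 comparisons, on the log2(FPKM + 1) scale. The complex medians lie between -0.043 and 0.040 in all panels, and wide intervals belong to a few members of low or uneven level.

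The second comparison set animals that received Q808 with PTZ against animals that received PTZ with vehicle. No member passed: 0 of 89 had a limma adjusted p under 0.05, where 0.0% of all genes did, and 3 of 89 had an unadjusted p under 0.05, where 6.14% of all genes did. The groups overlapped for every member, while 0.777% of all genes had non-overlapping groups. The median log2 change was 0.0087 over the members and -0.0044 over all genes, with 55 members higher and 34 lower with Q808, and the median was 0.0037 in complex I, 0.022 in complex II, 0.0081 in complex III, 0.040 in complex IV and 0.018 in complex V. Each of the 5 turned negative with 1 library left out, to between -0.0040 in complex II and -0.036 in complex I. That median rested on single libraries, at -0.032 without PTZ+Q808 replicate 2 and -0.018 without PTZ replicate 2. The 95% interval lay within a 1.5-fold change for 84 of 89 members (94.4%), against 92.5% of all genes.

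The 3 members of smallest p were all higher in mean with Q808. Ndufa10l1, a close relative of the complex I subunit Ndufa10, was at 8.69, 14.9, 8.73, 13.98 and 8.30 FPKM in the PTZ libraries and at 14.5, 22.8, 21.8, 14.5 and 20.3 FPKM in the PTZ+Q808 libraries. It had 2 levels in each group, and the lower PTZ+Q808 libraries met the higher PTZ libraries. The log2 change was 0.75 ± 0.25 (SE), with a limma adjusted p of 0.760. Reads of this gene may be split with its relative: the sum of the 2 rows ran from 34.5 to 41.5 FPKM after PTZ and from 40.6 to 54.5 FPKM with Q808. In the controls Ndufa10l1 was at 7.37, 8.66, 21.85 and 14.5 FPKM, from the low PTZ level to the high PTZ+Q808 level. The sum of the 2 rows in the controls ran from 34.5 to 50.5 FPKM.

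Ndufb3, an accessory subunit of the membrane arm, was at 75.2, 82.4, 77.3, 92.5 and 99.0 FPKM in the PTZ libraries and at 88.0, 124, 94.7, 99.4 and 106.5 FPKM in the PTZ+Q808 libraries. The log2 change was 0.26 ± 0.093 (SE), with a limma adjusted p of 0.760. Uqcrb, a subunit of complex III near its ubiquinone site, was at 34.6, 37.3, 35.6, 46.6 and 43.0 FPKM after PTZ and at 41.7, 58.5, 43.7, 42.6 and 49.5 FPKM with Q808 (log2 change 0.25 ± 0.10 SE, limma adjusted p = 0.760). In both genes PTZ replicates 4 and 5 reached into the range of the PTZ+Q808 group, and PTZ+Q808 replicate 2 was the highest library. In the other complexes the smallest p belonged to Cox7b (0.13, limma adjusted p = 0.828) and Ndufa4l2 (0.19, limma adjusted p = 0.838) of complex IV, and to Atp5j2 (0.13, limma adjusted p = 0.847) and Atp5s (0.069, limma adjusted p = 0.912) of complex V. The anchors Sdhd and Sdhc of complex II had log2 changes of 0.047 and 0.039 (both limma adjusted p = 0.932), which were 0.00050 and 0.0099 without PTZ+Q808 replicate 2, and 0.013 for Sdhc without PTZ replicate 2. Uqcrc2 in complex III had 0.082 (limma adjusted p = 0.836), and the assembly factors Ndufaf5 and Atp5sl had 0.12 and -0.10 (limma adjusted p = 0.821 and 0.864).

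The third comparison, PTZ with Q808 against control, shares its samples with both others and is not independent of them. It held the most calls in the series, at 2.87% of all genes with a limma adjusted p under 0.05, and 0 of 89 members were among them. Those 366 calls fell to 17 without control replicate 1, to 4 with the sample number as a replicate block and to 0 without the 3 libraries low in Ttr. An unadjusted p under 0.05 was found for 12 members (13.5%), where 20.7% of all genes had one. The median log2 change was -0.023 over the members and -0.020 over all genes, with 32 members higher and 57 lower with PTZ+Q808. The median was -0.043 in complex I, -0.0072 in complex II, 0.0096 in complex III, -0.021 in complex IV and -0.019 in complex V. Each of the 5 changed sign under some alternative, with ranges of -0.081 to 0.013 in complex I and -0.047 to 0.051 in complex III. For 84 of 89 members (94.4%) the 95% interval lay within a 1.5-fold change, against 87.3% of all genes. Leaving out the 3 libraries of low Ttr turned the members' median to 0.013, and it was -0.066 without PTZ+Q808 replicate 2 and -0.0026 without control replicate 3.

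Ndufs4, an accessory subunit of the complex I peripheral arm whose loss causes Leigh syndrome, had the smallest p of the set. It was at 73.5, 76.4, 77.0 and 67.0 FPKM in the controls, at 70.9, 78.9, 77.8, 85.7 and 86.2 FPKM in the PTZ libraries and at 84.5, 95.2, 85.5, 83.6 and 87.2 FPKM in the PTZ+Q808 libraries. Every PTZ+Q808 library lay above every control, and the PTZ libraries spanned both. The log2 change from control to PTZ+Q808 was 0.24 ± 0.065 (SE; 95% interval 0.11 to 0.38), and the limma adjusted p of 0.0558 missed the threshold. Over 24 alternative settings its adjusted p ran from 0.0373 to 0.179 and passed in 5 of them, among them 0.0447 without PTZ replicate 1 and 0.0486 without PTZ+Q808 replicate 4.

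Groups without overlap were found for 6 of 89 members (6.74%), where 8.91% of all genes had them. Of these 5 were higher with PTZ+Q808, where 4.75% of all genes were higher without overlap, and 1 was lower, where 4.17% of all genes were. Ndufb3 was at 77.5, 85.9, 87.94 and 80.2 FPKM in the controls, all below the PTZ+Q808 values given above, though the lowest of those (88.05 FPKM) was next to the highest control. Its log2 change was 0.30 ± 0.098 (SE), with a limma adjusted p of 0.107.

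Cox7b, a small nuclear subunit of complex IV, was at 283, 271, 259 and 225 FPKM in the controls, at 260.4, 256, 257, 308 and 303 FPKM after PTZ, and at 295, 321, 306.5, 284.5 and 309.8 FPKM with PTZ+Q808. Control replicate 1 came close to the lowest PTZ+Q808 library. The log2 change from control was 0.23 ± 0.077 (SE), with a limma adjusted p of 0.113. Uqcrc2, a core protein of complex III, was at 138, 140.5, 147.7 and 139 FPKM in the controls and at 158, 160.4, 147.9, 151.5 and 159 FPKM with PTZ+Q808, where control replicate 3 and PTZ+Q808 replicate 3 nearly met, and its PTZ libraries at 138, 151.5, 139, 157.5 and 148 FPKM lay across both. The log2 change of Uqcrc2 from control was 0.14 ± 0.049 (SE), with a limma adjusted p of 0.135.

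The last of the higher members was Ndufaf5, a complex I assembly factor that modifies the core subunit Ndufs7. It was at 23.5, 23.1, 24.6 and 22.9 FPKM in the controls and at 25.7, 28.2, 24.9, 24.8 and 26.8 FPKM with PTZ+Q808 (log2 change 0.14, limma adjusted p = 0.218). In the opposite direction, Ndufa4l2 was at 3.12, 2.81, 2.65, 2.67 and 3.16 FPKM with PTZ+Q808, below all 4 control values given above. Its log2 change was -0.26 ± 0.12 (SE), and the limma adjusted p was 0.221.

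Other members with small p overlapped between the groups. Uqcrh had the second smallest p, at 217, 254, 231 and 215.5 FPKM in the controls and 256, 292, 278, 246 and 278 FPKM with PTZ+Q808, where only control replicate 2 reached the PTZ+Q808 range (log2 change 0.24 ± 0.076 SE, limma adjusted p = 0.0983). Uqcrb had a log2 change of 0.29 (limma adjusted p = 0.153), and Ndufaf4, an assembly factor of complex I, 0.28 (limma adjusted p = 0.160). Atp5j2, subunit f of the membrane part of complex V, had 0.21 (limma adjusted p = 0.194), and Atp5e, the epsilon subunit of its catalytic part, -0.12 (limma adjusted p = 0.429). Cox7c of complex IV had 0.23 (limma adjusted p = 0.223) and Atp5sl -0.17 (limma adjusted p = 0.238). In complex II, the log2 changes of Sdhc and Sdhb were -0.074 (limma adjusted p = 0.411) and -0.048 (limma adjusted p = 0.680). The latter was 0.0039 without the 3 libraries low in Ttr (limma adjusted p = 0.983).

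**Figure D4:**
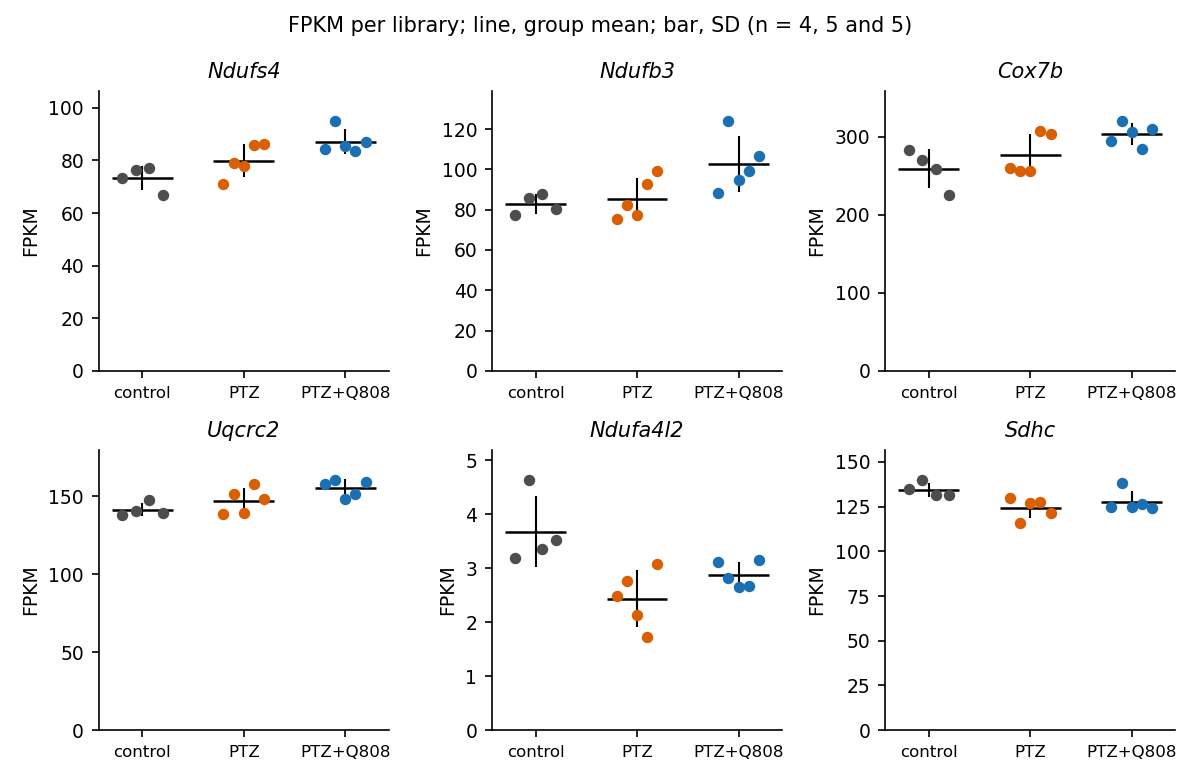
FPKM per library for 6 members with non-overlapping groups in at least 1 comparison, with the group mean (line) and SD (bar; n = 4, 5 and 5), on axes from 0. For Ndufs4, Ndufb3, Cox7b and Uqcrc2 the PTZ+Q808 points lie above all controls with the PTZ points across both, and for Ndufa4l2 and Sdhc the PTZ points lie below all controls.

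Markers of other cells were read beside this comparison. The summed level of 6 oligodendrocyte markers, all detected in every library, ran from 3480 to 6900 FPKM in the controls, from 3640 to 5420 FPKM after PTZ and from 2530 to 4800 FPKM with PTZ+Q808. The 7 neuronal markers ran from 1930 to 2430, from 2060 to 2510 and from 2230 to 2570 FPKM in the same order. The mean neuronal sum was highest (2380 FPKM, against 2240 in the controls) and the mean oligodendrocyte sum lowest (3770 FPKM, against 5020 in the controls) in PTZ+Q808, with overlap of all groups. The 7 neuronal markers did not move together. Snap25 ran from 643 to 722 FPKM in the controls and from 754 to 916 FPKM with PTZ+Q808, and Syt1 from 307 to 372.5 and from 358 to 395 FPKM. Slc17a7 ran from 524 to 810 and from 569 to 821.5 FPKM, and Gad1 from 82.1 to 95.4 and from 76.2 to 85.7 FPKM. The 6 markers of meninges and fibroblasts, all found, 5 of them at 1 FPKM or more in every library, had sums of 53.4 to 71.5 FPKM in the controls, 56.7 to 178 FPKM after PTZ and 52.7 to 135 FPKM with PTZ+Q808, with means of 60.6, 92.9 and 103 FPKM. For all these lists their part in the member levels was not tested.

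A few members varied far more within groups than the rest. The SD within groups on the log2(FPKM + 1) scale had a median of 0.115 over the members and 0.138 over all genes, and 6 members exceeded 0.25. Ndufa1, a small membrane-arm subunit needed for complex I assembly, was at 78.0 FPKM in control replicate 2, at 25.3 and 28.2 FPKM in PTZ replicates 4 and 5, and at 2.79 to 4.62 FPKM in the other 11 libraries. Its level thus fell into separate ranges within the control and PTZ groups, and none of the high libraries was a PTZ+Q808 library. LOC108348144, a further row with the same product name, lay at 0.519 to 1.77 FPKM, so the sum of both rows kept that pattern.

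The row named Ndufs6 belongs to an identifier that RefSeq now lists as a pseudogene (Ndufs6-ps1) and ran from 0.846 to 2.67 FPKM. The identifier with the current symbol Ndufs6 (LOC679739 in the files) ran from 2.21 to 11.5 FPKM, and LOC100912599, annotated as like it, was at 54.1 FPKM in PTZ replicate 2 and at 2.28 to 4.03 FPKM elsewhere. Atp5f1 (current symbol Atp5pb), the b subunit of the ATP synthase stalk, ran from 3.30 to 13.1 FPKM, far below the other stalk and membrane subunits of complex V. The Ndufs6 rows named here summed to 58.3 FPKM in PTZ replicate 2 and to between 5.93 and 16.3 FPKM elsewhere. Atp5f1 together with LOC100911417, a row of like product name, summed to between 5.19 and 14.9 FPKM. That sum was still far below the other stalk and membrane subunits. Reads of these genes may be divided between near-identical rows, which was not tested, so the values of Ndufa1, Ndufs6, Atp5f1 and Ndufa10l1 are uncertain.

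The other 2 uneven members were muscle isoforms. Cox8b was at 7.54, 8.63, 0.891 and 5.42 FPKM in the controls, at 11.4, 1.86, 4.83, 5.37 and 6.22 FPKM after PTZ and at 0.367, 4.70, 8.80, 7.83 and 3.91 FPKM with PTZ+Q808. In each group the lowest library was the one low in Ttr. All 6 choroid plexus markers were found, 1 of them at 1 FPKM or more in every library, and their sum in these 3 libraries was the lowest of its group, at 57.2, 118 and 337 FPKM. Their part in the level of Cox8b was not tested. Cox6a2 ran from 0.447 to 4.98 FPKM with no such order, and the muscle marker Ckm was at 0.185 FPKM or less in every library.

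**Figure D5:**
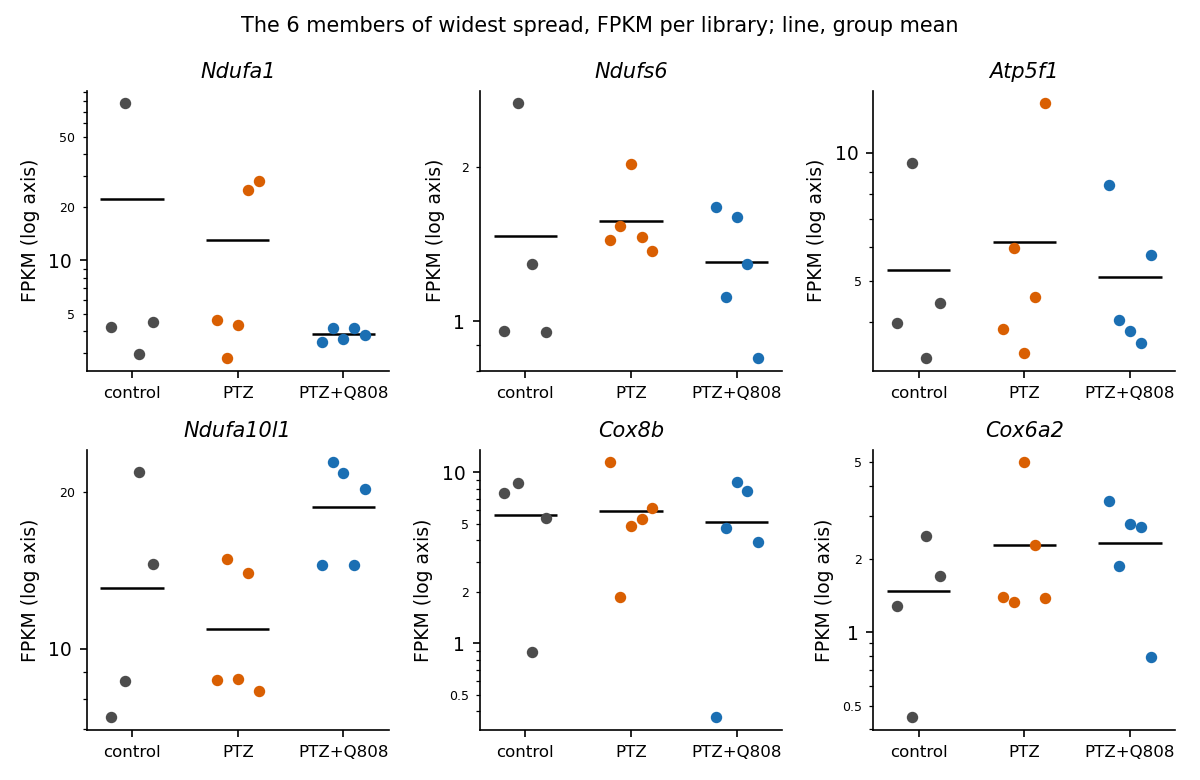
FPKM per library on log axes for the 6 members of widest spread within groups, with group means as lines. High libraries of Ndufa1 stand apart within the control and PTZ groups, and Cox8b has 1 low library in each group.

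Genes that serve the same pathway outside the symbol rule were read from the same fit. In PTZ against control and in PTZ+Q808 against PTZ, no gene of the 8 mitochondrial and glycolytic lists, and no cytosolic ribosomal protein gene, passed the limma test. The smallest adjusted p was 0.407 in the first comparison (Slc16a7) and 0.760 in the second, and the lists, of 12 to 78 genes, had from 0 to 5 genes each with an unadjusted p under 0.05, where 8.11% and 6.14% of all genes had one. In the first comparison the highest counts were 5 of 73 mitochondrial ribosomal proteins and 4 of 39 assembly factors. In the second they were 5 of 30 import genes, 3 of 20 genes of the citric acid cycle and pyruvate entry and 3 of 24 regulators of mitochondrial biogenesis. The other lists had 0 to 2 genes each in either comparison, and no list was tested as a set. In PTZ+Q808 against control, 2 of 20 genes of the citric acid cycle and pyruvate entry passed, both higher, where 2.87% of all genes passed in either direction. Dld, the dihydrolipoamide dehydrogenase shared by the pyruvate and oxoglutarate dehydrogenase complexes, was at 33.8, 37.7, 34.8 and 31.1 FPKM in the controls, at 34.8, 38.5, 33.4, 42.4 and 42.2 FPKM after PTZ and at 44.7, 47.1, 45.03, 39.7 and 46.8 FPKM with PTZ+Q808. All PTZ+Q808 libraries exceeded all controls, and the log2 change was 0.37 ± 0.080 (SE; limma adjusted p = 0.0307).

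Sucla2, a subunit of succinyl-CoA ligase, rose from 52.1 to 67.4 FPKM in mean, again with no overlap (log2 change 0.36 ± 0.083 SE, limma adjusted p = 0.0352). Its PTZ libraries, at 51.7, 56.4, 50.2, 66.8 and 60.3 FPKM, lay across both groups. Of 21 genes of glycolysis and monocarboxylate transport, 1 passed, against the same 2.87% of all genes: Slc16a7, a transporter of lactate and pyruvate in neurons, rose from 2.52 to 3.70 FPKM (log2 change 0.42 ± 0.10 SE, limma adjusted p = 0.0409). After PTZ without Q808 the mean of Slc16a7 was 3.52 FPKM, a log2 change of 0.36 from control (limma adjusted p = 0.407). PTZ replicate 2, at 4.43 FPKM, exceeded every PTZ+Q808 library. None of these calls held without the 3 libraries low in Ttr, where the limma adjusted p was 0.175, 0.167 and 0.145 for Dld, Sucla2 and Slc16a7 and the log2 changes were 0.38, 0.40 and 0.44. They were also lost when control replicate 1, 3 or 4 or PTZ+Q808 replicate 1, 3 or 5 was left out, with adjusted p from 0.0693 to 0.117. Leaving out PTZ+Q808 replicate 2 also ended the calls of Sucla2 (0.0555) and Slc16a7 (0.0541), and leaving out control replicate 2 that of Slc16a7 (0.0829).

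The remaining lists had no call in that comparison, and their genes of smallest p are given as values. Among 39 other assembly factors, Sdhaf3, which serves complex II, had a log2 change of 0.39 (limma adjusted p = 0.0655), and Ecsit, which serves complex I, -0.24 (limma adjusted p = 0.0683). Among 17 mobile carriers and electron donors, Coq9, of ubiquinone synthesis, had -0.22 (limma adjusted p = 0.0716), and cytochrome c (Cycs) had 0.35 with all PTZ+Q808 libraries above the controls (limma adjusted p = 0.106). Of 24 regulators of mitochondrial biogenesis, the coactivator Ppargc1a stood at 0.23 (limma adjusted p = 0.0723) and the nuclear receptor Esrra at -0.24 (limma adjusted p = 0.0737). Tomm20, a receptor of protein import, had 0.26 (limma adjusted p = 0.0864) and the chaperonin Hspd1 0.17 (limma adjusted p = 0.142). The smallest p of the mitochondrial ribosomal proteins belonged to Mrpl19 (-0.21, limma adjusted p = 0.101) and Mrpl45 (-0.18, limma adjusted p = 0.12), of the carriers to the channel Vdac3 (0.22, limma adjusted p = 0.184) and Ucp2 (-0.27, limma adjusted p = 0.308), and of the cytosolic ribosomal proteins to Rps3a (0.27, limma adjusted p = 0.106) and Rps4x (0.18, limma adjusted p = 0.137). An unadjusted p under 0.05 was found for 7 of 39 assembly factors, 5 of 17 carriers and donors, 4 of 24 regulators, 11 of 73 mitochondrial ribosomal proteins, 3 of 30 import genes, 1 of 12 carriers of ATP and 7 of 78 cytosolic ribosomal proteins, where 20.7% of all genes had one. The median log2 change was -0.037 over 73 mitochondrial ribosomal proteins, 0.025 over 30 genes of protein import and -0.022 over 12 carriers of ATP, phosphate and uncoupling, against -0.020 over all genes.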

How the data were processed

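Per the labels' protocols, total RNA from hippocampal tissue was extracted with TRIzol and sequenced. FPKM values per gene and sample were deposited by the authors, 1 file per sample; the submitters' processing notes list HISAT2, Bowtie2, Cufflinks, StringTie, HTSeq, SAMtools, DESeq and Trimmomatic with no role or version, and the genome build is not given in the sources used here. FPKM is scaled to the library total, so a change is relative to all other transcripts, and how reads of near-identical genes were shared is not stated.

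Genes with FPKM of 1 or more in at least 4 samples were kept (12744). Log2(FPKM + 1) values of all 14 libraries were fitted with limma 3.58.1 (R 4.3.3) with 3 groups, a trended prior and no covariate, two-sided. Benjamini-Hochberg adjustment ran over all 12744 genes, and an adjusted p under 0.05 was called. The fit was first run on simulated data with independent noise for each gene, which did not hold the shift shared between members. No count test was run, since FPKM is not a count. Of the low values used to read relative depth, 83.8% were whole multiples within 0.12 of a step. The step was each gene's own smallest positive value after depth correction, which is whole by construction. That reading used 1881 genes at up to 0.3 FPKM.

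The members, gene lists and tests were chosen with earlier results of these data known. Named members were the 2 of highest mean FPKM in each complex, the 2 of smallest p in each complex and comparison, isoform pairs and all Sdh subunits; members of wide spread and those whose groups do not overlap were added after their values were seen. From each other list, called genes or else the 2 of smallest p were to be named, and the text gives them for PTZ+Q808 against control. All 89 member identifiers matched RefSeq (18 under another current symbol), and promoter sequences are RefSeq's, build GRCr8. Sample numbers were not used as pairs: same-numbered libraries' deviations from their group means correlated from -0.28 to 0.143 over 13 pairs.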

Additional observations from a re-analysis of the deposited data

Results flagged for a closer look

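Within each group, the highest and lowest library of 40 named members and of 7 sets was checked for standing apart from the rest, in 141 groups. Chance alone gives such a gap in about 1 in 20 groups, and 14 were found. The groups are not independent, since the sets are made of members and the members shifted together from library to library. The count can therefore not be measured against that rate. PTZ+Q808 replicate 2 accounted for 9 of the 14 gaps, always as the highest library. Over all members its mean deviation was 0.173 on the log2(FPKM + 1) scale, against -0.0473 to 0.00703 in the other PTZ+Q808 libraries, in complex I 0.194 (others -0.051 to 0.00899) and in complex III 0.206 (others -0.0179 to 0.0143). Single members that stood apart in it were Atp5e (522.1 FPKM, others 398.6 to 431.0), Atp5g1 (206.3, others 151.9 to 160.4), Ndufb7 (147.4, others 108.0 to 118.8), Sdhc (138.4, others 124.1 to 126.3), Sdhd (115.0, others 93.49 to 99.55) and Uqcr11 (291.0, others 249.7 to 258.8).

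The other 5 were spread over libraries. Ndufb7 was high in PTZ replicate 4 (141.5 FPKM, others 109.7 to 116.2), Cox6a2 in PTZ replicate 3 (4.981, others 1.338 to 2.288), Cox4i2 in PTZ+Q808 replicate 3 (1.558, others 1.174 to 1.282) and Sdhb in control replicate 3 (156.9, others 137.5 to 140.1). Uqcr10 was low in PTZ replicate 2 (102.5 FPKM, others 125.5 to 134.2).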

How the results depend on the processing

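The number of members called stayed at 0 under all 24 alternatives in PTZ against control and in PTZ+Q808 against PTZ. In PTZ+Q808 against control it became 1 (Ndufs4) with a minimum of 5 FPKM, with libraries rescaled to an equal total and with quantile normalization, and 0 to 1 with 1 library left out. The median log2 change of the members, with 1 library left out, ran from -0.0545 to -0.00322 in PTZ against control, from -0.0315 to 0.0377 in PTZ+Q808 against PTZ and from -0.0661 to -0.0026 in PTZ+Q808 against control. Without the 3 libraries low in Ttr these medians were 0.0186, -0.00377 and 0.0134. Of 861 values of 36 named member results, 855 kept direction and side of the threshold, 5 passed it (Ndufs4) and 1 turned: Sdhb in PTZ+Q808 against control was 0.00385 without the libraries low in Ttr.

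With the sample number as a replicate block, 0 members were called in each comparison, with medians of -0.0358, 0.00865 and -0.0324, and Ndufs4 had a limma adjusted p of 0.14. The labels do not say that numbers pair the samples, and the block took the calls over all genes in PTZ+Q808 against control from 366 to 4. That count was 190 with no filter, 199 with only the 2 groups compared, 564 with a term for Y-linked transcripts and 0 without the 3 libraries low in Ttr. It was 17, 40 and 54 without control replicate 1, 3 or 4, and 32, 72, 673 and 38 without PTZ+Q808 replicate 1, 3, 4 or 5. In PTZ against control it was 4 and ran from 0 to 8, and in PTZ+Q808 against PTZ it was 0 and ran to 2. The alternatives for Dld, Sucla2 and Slc16a7 were added after seeing the data, and their calls were also lost under the block (limma adjusted p = 0.0859, 0.105 and 0.128), those of Sucla2 and Slc16a7 with no filter (0.0533 and 0.067), and that of Slc16a7 with an equal total (0.0545) and quantile normalization (0.0556). The cause of these shifts was not tested. Read counts were not at hand, so counting error is not separated from the spread between samples.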
